A study of Arabidopsis thaliana with 8 samples.

Results

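The genes described here build, loosen and remodel the plant cell wall. They are the probe sets whose single annotated gene symbol begins with EXPA, EXPB, EXLA, EXLB, XTH, GH9, CESA, CSL or TBL, and 71 of the 22746 probe sets on the array met this rule. The gene table of the TAIR10.1 assembly holds 159 genes with such symbols, so the 71 cover part of each family: 18 of 34 expansins, 9 of 30 XTH genes, 15 of 21 GH9 genes, 7 of 26 CSL genes and 22 of 41 TBL genes. None of the 7 genes with a CESA symbol was paired with a probe set in the annotation used, and cellulose synthase itself is not analysed here.

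The RNA came from whole rosettes of Arabidopsis thaliana, without stem and flowers, of plants that were 35 days old and beginning to bolt. Of 8 ATH1 arrays, 2 held the reference accession Col-0, titled Col-0-L and Col-0-S with no explanation of the letters, and 6 held plants called WRKY T-DNA knockout, 1 array each for the lines KO-02, KO-07, KO-30, KO-40, KO-54 and KO-56. All plants, Col-0 included, grew in the same chamber conditions (70% humidity, 22 °C in the day, 19 °C at night, and a light cycle labelled as 14 h of light and 8 h of dark) on autoclaved substrate with the insecticide Confidor (imidacloprid) and the fertiliser Osmocote Plus. A T-DNA insertion disrupts a gene by placing foreign DNA in it. The labels do not say which WRKY gene each insertion hits or whether the plants were homozygous, and the insertion was not checked here. There was 1 array per line and no label on how plants were grown or pooled for each array. Every p-value therefore rests on the spread among these arrays. Part of that spread may be technical, and part may be differences between the 6 lines, each a separate insertion line. The series concerns group II-A WRKY regulators and early leaf senescence.

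The primary wall of a growing leaf cell is a mesh of cellulose microfibrils tied together by xyloglucan and other polysaccharides. Expansins loosen this mesh without cutting it, XTH enzymes cut and rejoin xyloglucan chains, and GH9 enzymes hydrolyse glucan chains. CSL proteins synthesise wall polysaccharide backbones other than cellulose, and TBL proteins mostly attach acetyl groups to those polysaccharides. In leaves this machinery is most active while cells expand, and it quietens as a leaf matures.

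The deposited values are MAS5 signals on a linear scale, already scaled to a common level. Array medians ran from 36.0 to 39.1. Of 12 listed mesophyll markers, 3 were paired with a single-gene probe set (RCA, LHCB4.1 and LHCB4.2). Their summed signal was 10440 to 12977 in Col-0 and 9201 to 10759 in the lines. Leaf identity was not tested against other tissues. Listed markers of xylem and stem fibre, flower, root and trichome were not paired with a single-gene probe set in the annotation used, and the meristem marker CLV3 and the stomatal lineage marker SPCH were below the filter described next. The actin 3' to 5' signal ratio, which grows as RNA loses its 5' end, reached 29.5 in KO-54 and 15.4 in KO-30, while the other 6 arrays had 8.41 to 12.0.

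Of the 71 members, 43 had a mean log2 signal above the 30th percentile of all probe sets, and 28 did not. The share below that level was 39.4% of members, against 30% of all probe sets by construction. The 28 dim members had mean signals from 0.436 to 9.32. The dimmest was XTH21 and the brightest EXPA18. By family, 6 expansins, 5 XTH, 9 GH9, 1 CSL and 7 TBL genes were too dim to be tested. Among the members, 7 pairs are direct neighbours on a chromosome. In 4 of these pairs (EXLA1 and EXLA3, XTH18 and XTH19, GH9B17 and GH9B18, TBL28 and TBL30) 1 gene was above the filter and the other was not, and in 3 (GH9B11 and GH9B12, GH9B16 and GH9B17, TBL19 and TBL21) neither was.

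The first comparison set the mean of all 6 lines against Col-0. In every family measured, more members above the filter had a lower mean in the lines than a higher one. The lower members were 10 of 12 expansins, 3 of 4 XTH, 5 of 6 GH9, 4 of 6 CSL and 10 of 15 TBL genes. Of the 43 members above the filter, 32 had a lower mean in the lines, which is 74.4%, against 52.7% of the 15922 probe sets tested. The median log2 difference of the members was -0.13, where that of all probe sets tested was -0.01. No member passed the test: limma called 0 of 43 at an adjusted p under 0.05 and 0% of all probe sets tested, and the members' adjusted p ran from 0.989 to 0.996. At an unadjusted p under 0.05 there were 8 members (18.6%), against 3.72% of all probe sets tested. Of these, 7 were lower in the lines (EXPB3, EXPA15, EXPA20, TBL36, GH9B7, EXPB1 and GH9C2; 16.3% against 1.61% of all tested) and 1, TBL38, was higher (2.33% against 2.11%). Members were chosen with earlier results of these data known, so these shares are descriptive and were not tested. In whole rosettes, fewer cells of a type and less RNA per cell cannot be told apart.

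**Figure D1:**
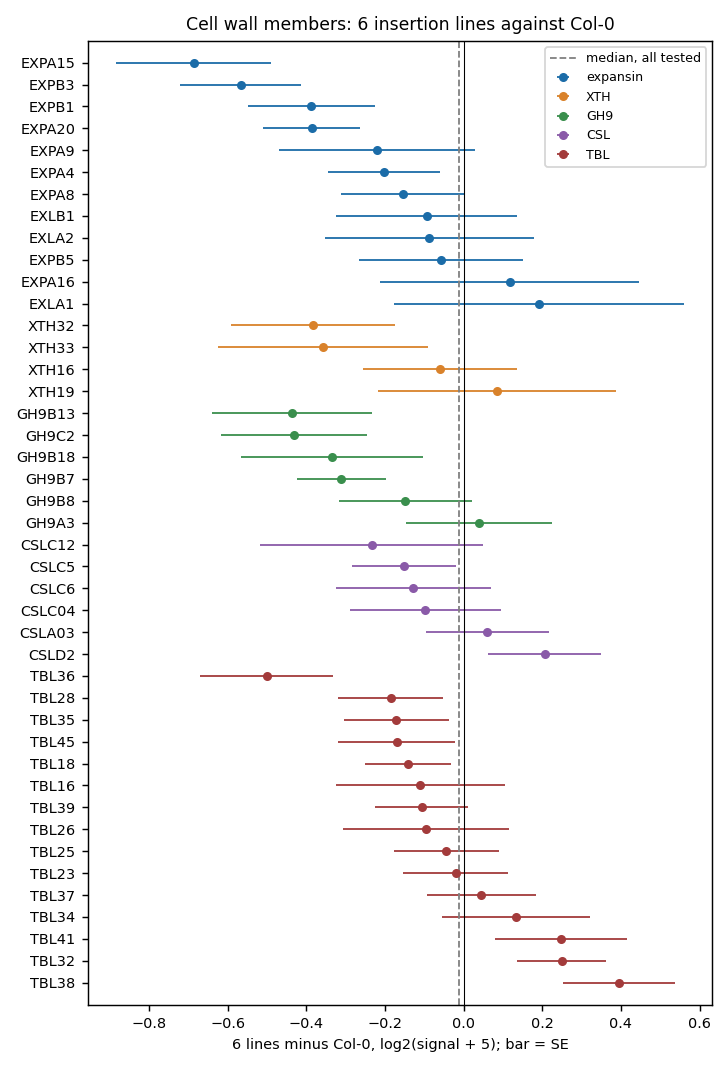
Log2 difference between the mean of the 6 insertion lines and the mean of the 2 Col-0 arrays, on the log2(signal + 5) scale, for the 43 members above the filter, with bars showing the limma standard error. Points left of the dashed line (the median of all 15922 probe sets tested, -0.01) include EXPA15 at -0.69 and TBL36 at -0.50, and the point furthest to the right is TBL38 at 0.40.

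For 5 members the lines did not overlap with Col-0 on the low side, and for 3 members on the high side. These are 11.6% and 6.98% of the 43, against 3.1% and 3.13% of all probe sets tested. The 5 low members were EXPA15, EXPB3, EXPA20, GH9B7 and TBL36, and the 3 high members were TBL38, TBL32 and TBL41. Of these, EXPA20 was named after its values were seen. TBL41 cleared Col-0 by little, with 10.21 in KO-40 against 10.19 in Col-0-S. The count of low members depended on single arrays. It was 9 without Col-0-L, 12 without Col-0-S and 11 without KO-56, and the count of high members was 6 without Col-0-S. With a filter at the median signal, which TBL32 and TBL41 did not pass, the count of high members was 1. For any probe set, leaving out an array can remove an overlap but not create one. The shares of all probe sets in these settings were not computed, so these counts have no background beside them. For 15 members (34.9%; 11.9% of all tested) at least 5 of 6 lines were below the Col-0 pair, and above it for 4 (9.30%; 11.5% of all tested).

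**Figure D2:**
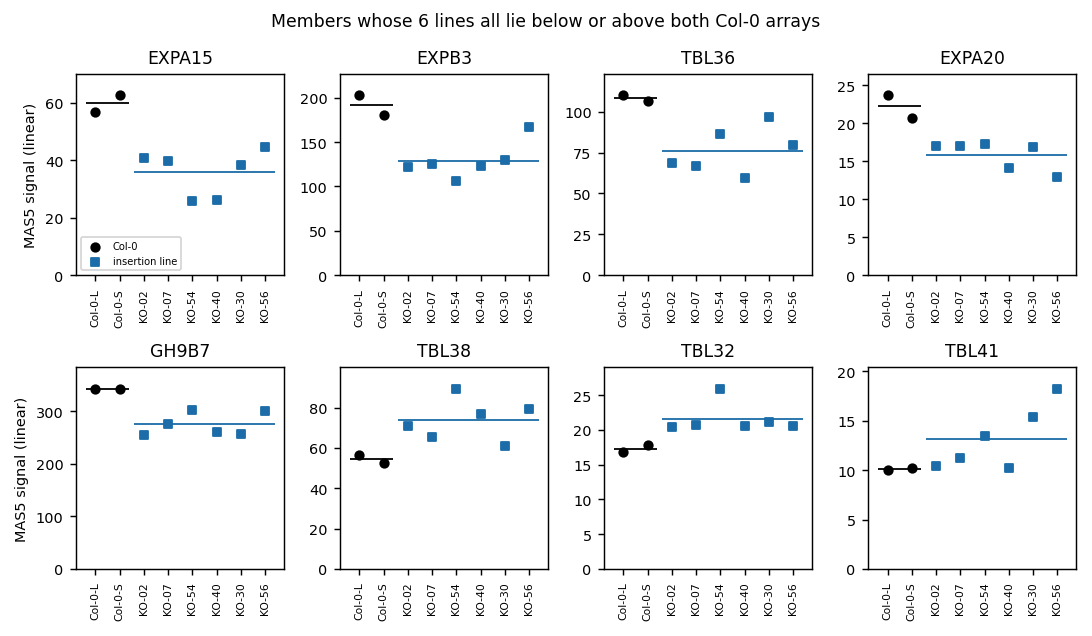
MAS5 signal (linear, axis from 0) on each of the 8 arrays for the 8 members whose lines do not overlap with Col-0. Black circles are Col-0 arrays, blue squares are lines, and horizontal bars are group means. In EXPA15 the lines lie between 25.6 and 44.7 and both Col-0 arrays above 56, and in TBL38 the lines lie between 61.1 and 89.2 and both Col-0 arrays below 57.

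Expansins are divided into alpha (EXPA), beta (EXPB) and expansin-like (EXLA, EXLB) groups. Of the 12 expansins above the filter, 10 had a lower mean in the lines, with a family median of -0.18. This median was -0.35 without Col-0-S. The alpha expansin EXPA15 (AT2G03090) gave a signal of 56.8 for Col-0-L and 62.6 for Col-0-S. In the lines its signal ran from 25.6 in KO-54 and 26.1 in KO-40, with a median of 39.0, to 44.7 in KO-56. Each line thus lay below both Col-0 arrays, and the Col-0 mean was 59.7 ± 4.1 (SD, n = 2) while the mean of the lines was 35.9 ± 8.03 (SD, n = 6). The log2 difference was -0.69 ± 0.20 (SE; limma, adjusted p = 0.989, unadjusted 0.00564).

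The beta expansin EXPB3 (AT4G28250) gave 203 for Col-0-L and 181 for Col-0-S. Its 6 lines had signals from 106 in KO-54 through a median of 124 to 167 in KO-56. The line nearest to Col-0 was KO-56, and the other 5 lay at or below 130. The log2 difference was -0.57 ± 0.15 (SE), with the smallest unadjusted p among the members (limma, 0.00401; adjusted p = 0.989). Under the 17 alternative settings the difference lay between -0.75 and -0.52 for EXPA15 and between -0.65 and -0.49 for EXPB3. For both genes every line lay below the Col-0 pair. Only quantile normalization and median centring could therefore have turned the sign.

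EXPA20 (AT4G38210) was a dimmer probe set, with 23.7 and 20.7 in Col-0-L and Col-0-S. The lines spread narrowly, from 12.9 in KO-56 with a median of 16.9 to 17.3 in KO-54, and did not reach either Col-0 array. The log2 difference was -0.39 ± 0.12 (SE). EXPB1 (AT2G20750), the other beta expansin with a large difference, gave 51.1 for Col-0-L and 39.5 for Col-0-S, and from 27.6 in KO-54 to 41.9 in KO-56 with a median of 32.7. KO-56 lay between the Col-0 arrays and the other 5 lines below both, with a log2 difference of -0.39 ± 0.16 (SE), which was -0.22 without Col-0-L.

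EXPA4, EXPA8 and EXPA9 had smaller differences of -0.20, -0.15 and -0.22. For EXPA4, 5 of 6 lines lay below both Col-0 arrays and KO-56 above both. EXPA8 (AT2G40610) gave 313 for Col-0-L and 230.1 for Col-0-S, and its lines ran from 203 in KO-40 to 285 in KO-02, so the gap within the Col-0 pair (0.44 on the log2 scale) was larger than the difference between the groups. EXPA9 had its lowest signal in KO-02 (12.3) and its highest in KO-56 (34.2), against 26.0 and 21.3 in Col-0-L and Col-0-S, and 4 of 6 lines lay below both. Its difference was -0.10 without Col-0-L, -0.12 without KO-02, -0.34 without Col-0-S, -0.36 without KO-56 and -0.13 with a pseudocount of 21. EXPB5, the dimmest expansin tested, had 15.5 and 7.15 in the Col-0 pair and from 6.28 to 12.1 in the lines, a log2 difference of -0.06.

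The expansin-like genes EXLA1 and EXLA2 and the alpha expansin EXPA16 had another order of arrays. EXLA1 (AT3G45970) gave 199 for Col-0-L and 349 for Col-0-S, and in the lines 210.0 in KO-02, 266 in KO-07, 270.3 in KO-54, 324 in KO-40, 650.4 in KO-30 and 237 in KO-56. KO-30 stood above every other array, and the other 5 lines lay inside the Col-0 range. EXLA2 (AT4G38400) had 28.3 and 44.5 in Col-0-L and Col-0-S, with its lowest line KO-54 at 21.1, a line median of 31.8 and its highest line KO-30 at 54.2. EXPA16 (AT3G55500) had 48.3 and 87.5 in the Col-0 pair and ran in the lines from 44.95 in KO-02 with a median of 69.5 to 126 in KO-30. All 3 genes thus had more signal in Col-0-S than in Col-0-L and their highest signal in KO-30. Their differences between the 6 lines and Col-0 were 0.19 ± 0.37, -0.09 ± 0.27 and 0.12 ± 0.33 (SE), smaller than their gaps within the Col-0 pair (-0.79, -0.57 and -0.80 for Col-0-L minus Col-0-S). For EXLA1 and EXPA16 the direction turned without KO-30 (-0.03 and -0.04) and without Col-0-L (-0.20 and -0.28), and for EXPA16 also with array weights (-0.03).

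EXLB1 (AT4G17030) had nearly the same signal in both Col-0 arrays, 120.3 and 120.5. In 5 lines it lay between 96.9 and 109.7, below both, and in KO-56 it was 191. The difference of the 6 lines, -0.09 ± 0.23 (SE), therefore combined lines on both sides of Col-0. It was -0.24 without KO-56, and -0.05 without KO-02 or KO-07.

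**Figure D3:**
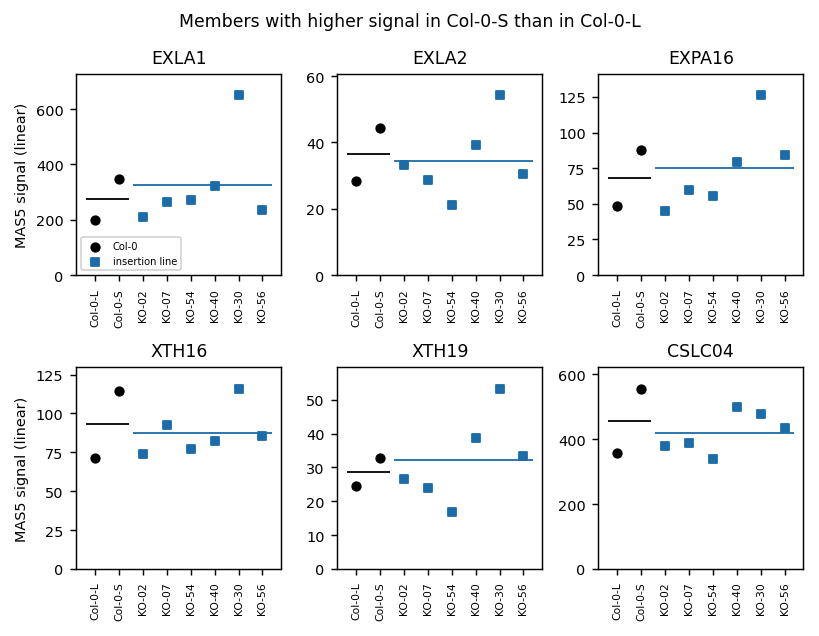
MAS5 signal (linear, axis from 0) on the 8 arrays for 6 members, chosen after their values were seen, with more signal in Col-0-S than in Col-0-L. Black circles are Col-0 arrays, blue squares are lines, and bars are group means. KO-30 is the highest array in EXLA1 (650.4), EXLA2 (54.2), EXPA16 (126), XTH16 (116) and XTH19 (53.2), and Col-0-S is the highest in CSLC04 (555).

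XTH enzymes act on xyloglucan, the main tether between microfibrils in the leaf wall. Of the 4 XTH genes above the filter, XTH32 and XTH33 had the largest differences between the lines and Col-0. XTH32 (AT2G36870) had 297 and 301 in Col-0-L and Col-0-S. Its lines ran from 178 in KO-40 and 179 in KO-54, with a median of 225, to 276 in KO-56 and 316 in KO-30. Thus 5 of 6 lines lay below both Col-0 arrays and KO-30 above both, with a log2 difference of -0.38 ± 0.21 (SE). XTH33 (AT1G10550), a dim probe set, had 15.1 and 11.8 in Col-0 and from 3.67 in KO-56 to 14.3 in KO-30, a log2 difference of -0.36 ± 0.27 (SE). This was -0.23 without Col-0-L, -0.21 without KO-56 and -0.17 with a pseudocount of 21. KO-40 and KO-30 lay inside the Col-0 range and the other 4 lines below it.

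XTH16 and XTH19, like EXLA1, had more signal in Col-0-S than in Col-0-L and their highest signal in KO-30. Unlike EXLA1, XTH19 had 3 lines above both Col-0 arrays and 2 below both. XTH16 (AT3G23730) gave 71.5 for Col-0-L and 115 for Col-0-S, and in the lines 73.6 to 116, highest in KO-30. XTH19 (AT4G30290), a gene known mainly from roots, had 24.5 and 32.6 in the Col-0 pair and ran from 16.8 in KO-54, with a median of 29.99, to 53.2 in KO-30. Their differences between the groups were -0.06 ± 0.20 and 0.08 ± 0.30 (SE). The XTH median of -0.21 rested on 4 genes, with 3 lower. Without the filter it was 0.031, with 3 of 9 genes lower. Over the 4 genes it was -0.06 without Col-0-S, -0.14 without KO-30 and -0.13 without KO-56, and XTH19 turned to -0.09 without Col-0-L, to -0.06 without KO-30 and to -0.01 with array weights.

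GH9 enzymes hydrolyse glucan chains. Class A is anchored in membranes, class B is secreted, and class C is secreted with a domain that binds polysaccharide. Of the 6 GH9 genes above the filter, 5 had a lower mean in the lines, with a median of -0.32. GH9B7 (AT1G75680) had 342 in both Col-0 arrays. The lines ran from 255 in KO-02, with a median of 268, to 303 in KO-54, and did not reach Col-0. The log2 difference was -0.31 ± 0.11 (SE; limma, adjusted p = 0.989, unadjusted 0.0198), and it stayed between -0.34 and -0.29 under the 17 alternative settings.

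GH9C2 (AT1G64390), of class C, gave 285 for Col-0-L and 229 for Col-0-S and ran in the lines from 144 in KO-54, with a median of 188, to 246 in KO-56. KO-56 alone reached the Col-0 range, and the log2 difference was -0.43 ± 0.19 (SE), or -0.28 without Col-0-L. GH9B13 (AT4G02290) had 50.2 and 60.1 in the Col-0 pair and from 28.4 in KO-56, with a median of 39.2, to 53.2 in KO-54, a log2 difference of -0.44 ± 0.20 (SE). The order of the lines therefore differed between these 2 genes: KO-56 was the highest line in GH9C2 and the lowest in GH9B13, and KO-54 the reverse. GH9B18 (AT4G39010), a dim probe set, had 15.6 and 13.5 in Col-0 and from 5.90 in KO-02 to 17.6 in KO-56 (-0.34 ± 0.23, SE, or -0.17 with a pseudocount of 21). GH9B8 had a difference of -0.15. GH9A3, a membrane-anchored relative of the cellulose-associated glucanase KORRIGAN, had 15.9 and 15.5 in Col-0 and from 10.5 in KO-54 to 21.04 in KO-07, with 4 lines above both Col-0 arrays and 2 below. Its difference of 0.04 turned to -0.02 without KO-07 and -0.01 without KO-30.

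CSL genes of the CSLC group make the glucan backbone of xyloglucan, CSLA genes make mannan, and CSLD genes are related to cellulose synthases and known from tip-growing cells. Of the 6 CSL genes above the filter, 4 had a lower mean in the lines, and these were the 4 CSLC genes. The family median was -0.11, and it was -0.03 without KO-54 and -0.01 without Col-0-S. CSLC04 (AT3G28180) gave 357 for Col-0-L and 555 for Col-0-S, a pair that spanned 5 of the 6 lines. The lines ran from 338 in KO-54, with a median of 411, to 501 in KO-40. Its difference of -0.10 ± 0.19 (SE) turned to 0.22 without Col-0-S.

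CSLC5 (AT4G31590) was among the steadiest members, with 99.9 and 98.6 in Col-0. KO-02, KO-30 and KO-56 had 98.0, 99.9 and 98.7, and KO-07, KO-54 and KO-40 had 78.2, 78.5 and 82.4. CSLC6 (AT3G07330) had 69.7 and 68.5 in Col-0, and its lowest lines were KO-54 at 41.7 and KO-30 at 55.9. CSLC12 (AT4G07960), a dim probe set, had 20.1 and 15.0 in Col-0 and 8.32 in KO-07 and 7.24 in KO-54, while its other lines lay between 16.2 and 20.6. Its difference of -0.23 was -0.07 without Col-0-L, -0.40 without Col-0-S, -0.13 without KO-07 and -0.11 without KO-54. In the opposite direction, CSLD2 (AT5G16910) had 104 and 92.5 in Col-0 and a line median of 115, with 5 of 6 lines above both Col-0 arrays and KO-56 (91.0) below both, a log2 difference of 0.21 ± 0.14 (SE), or 0.13 without Col-0-S. CSLA03 had a difference of 0.06.

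TBL proteins carry a plant-specific domain, and those studied mostly acetylate xylan, mannan or xyloglucan. The 15 TBL genes above the filter were spread on both sides of 0, with 10 lower and 5 higher in the lines. Their median was -0.10, and it was -0.04 without KO-30, -0.05 without Col-0-S and -0.06 without KO-02, KO-40 or KO-54. TBL36 (AT3G54260) had 110.2 and 107 in Col-0-L and Col-0-S and ran in the lines from 59.2 in KO-40, with a median of 74.0, to 96.9 in KO-30. The groups did not overlap, with a Col-0 mean of 108 ± 2.42 (SD, n = 2), a line mean of 76.2 ± 14.0 (SD, n = 6) and a log2 difference of -0.50 ± 0.17 (SE; limma, adjusted p = 0.989, unadjusted 0.0138).

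TBL38 (AT1G29050), whose product is known as a pectin acetylesterase in seed coat mucilage, had the largest positive difference of the members. Its signal was 56.6 for Col-0-L and 52.6 for Col-0-S and ran in the lines from 61.1 in KO-30, with a median of 73.9, to 89.2 in KO-54. The log2 difference was 0.40 ± 0.14 (SE; limma, adjusted p = 0.989, unadjusted 0.0190), and it stayed between 0.32 and 0.44 under the 17 alternative settings.

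Genes known to acetylate xylan did not share a direction. TBL32 (AT3G11030) had 16.8 and 17.9 in Col-0, and 5 lines lay between 20.5 and 21.2 with KO-54 at 25.9 (0.25 ± 0.11, SE, or 0.15 with a pseudocount of 21). The suffix of its probe set (_s_at) marks probes that can match transcripts of several related genes, so its signal may not be that of TBL32 alone. TBL34 had 6.26 and 14.9 in the Col-0 pair, which enclosed all 6 lines (9.27 to 13.4), and a difference of 0.13. TBL28 and TBL35 had differences of -0.19 and -0.17, and TBL35 lay below both Col-0 arrays (34.7 and 34.4) in 5 lines and above both in KO-56 (38.6). Among genes known to acetylate mannan, TBL23, TBL25 and TBL26 had differences of -0.02, -0.04 and -0.10. TBL25 (AT1G01430) had 200.045 and 182 in Col-0 and from 159 in KO-54 to 226 in KO-56. TBL25 turned to 0.02 without Col-0-L, and TBL23 to 0.03 without Col-0-S, 0.02 without KO-02 and 0.01 without KO-30.

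TBL41 was just above the filter, with 10.04 and 10.19 in Col-0-L and Col-0-S and from 10.21 in KO-40 to 18.2 in KO-56. With a pseudocount of 21 its difference of 0.25 was 0.13. TBL16 had 41.9 and 46.3 in Col-0, with 53.5 in KO-02 and 25.3 in KO-30 as its extremes. Its difference was -0.11, and 0.0075 without KO-30. TBL45 had 192 and 193 in Col-0, with 209 in KO-02 and 140.1 in KO-07. TBL18 (range 0.30 on the log2 scale over the 8 arrays) and TBL23 (0.36), together with CSLC5 (0.33), varied least among the members, and EXLA1 (1.68), XTH19 (1.42) and EXPA16 (1.39) varied most. TBL37 and TBL39 had differences of 0.04 and -0.11.

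**Figure D4:**
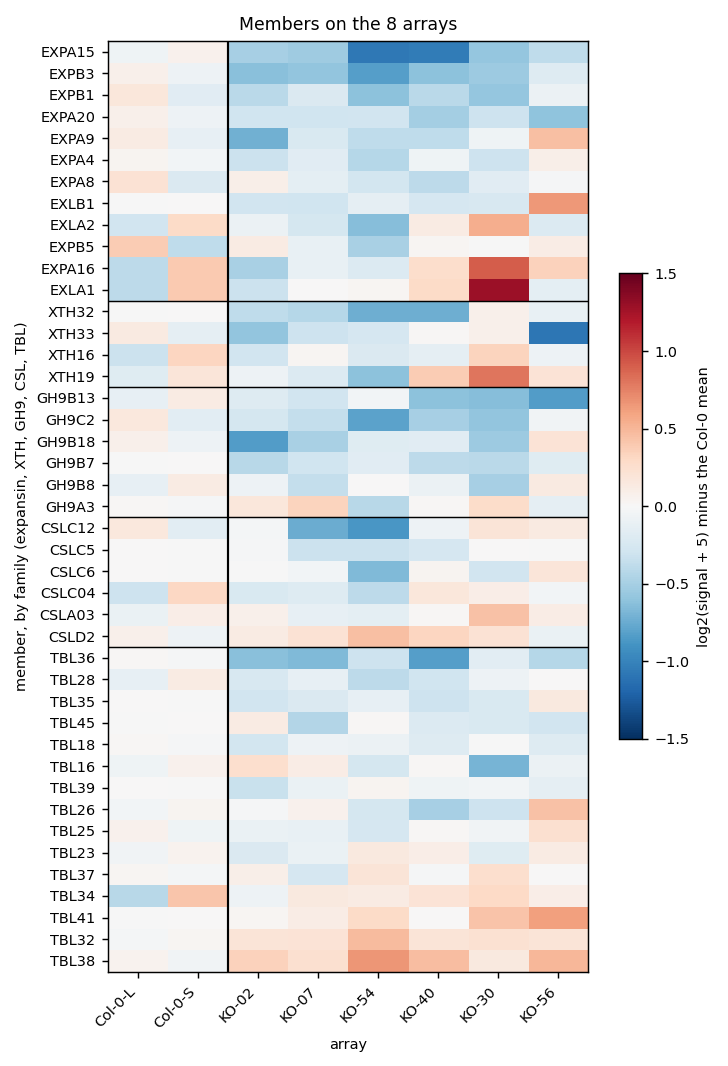
Log2(signal + 5) of each of the 43 members on the 8 arrays, relative to the mean of the 2 Col-0 arrays, with blue for lower and red for higher, and horizontal lines between families. EXPA15 and EXPB3 are blue in all 6 line columns, while EXLA1, EXPA16 and XTH19 are darkest red in KO-30 (1.29, 0.90 and 0.80).

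Family means by array put the lines in different orders. The values below are means of log2(signal + 5) over a family's members above the filter, minus the same in Col-0. Expansins had -0.44 in KO-54, -0.32 in KO-02, -0.25 in KO-40, -0.25 in KO-07, -0.01 in KO-30 and 0.00 in KO-56. XTH genes had -0.45 in KO-54, -0.33 in KO-02, -0.27 in KO-56, -0.23 in KO-07, -0.12 in KO-40 and 0.32 in KO-30. Thus KO-30 was the highest array for XTH genes, and for expansins its mean was level with Col-0 although 9 of 12 members were lower. GH9 genes lay below both Col-0 arrays in every line, from -0.40 in KO-30 to -0.15 in KO-56, so the line with the highest XTH mean had the lowest GH9 mean. CSL genes had -0.32 in KO-54 and -0.20 in KO-07, with the other 4 lines between -0.01 and 0.11. TBL means stayed within -0.09 and 0.08. Over all probe sets tested the same mean lay between -0.04 and 0.02.

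**Figure D5:**
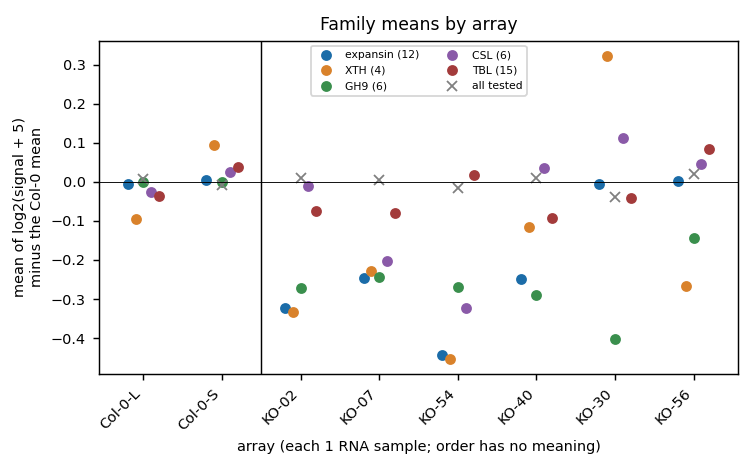
Mean log2(signal + 5) of each family on each array, minus the mean of the 2 Col-0 arrays, with the number of members in the legend and crosses for all 15922 probe sets tested. GH9 is below 0 in all 6 lines, XTH runs from -0.45 in KO-54 to 0.32 in KO-30, and the crosses stay between -0.04 and 0.02.

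Each line was also compared singly with Col-0. The spread came from the other 5 lines and the Col-0 pair together, so a lone array was assumed to vary as they do. These comparisons share the same 2 Col-0 arrays, and their values are given side by side. No member passed the test in any line (limma; called among all probe sets tested: 0% in KO-02, KO-07 and KO-40, 0.0691% in KO-54, and 0.00628% in KO-30 and in KO-56). Unadjusted p under 0.05 was met by 4 members in KO-02 (9.30%; 2.29% of all tested), 2 in KO-07 (4.65%; 1.65%), 10 in KO-54 (23.3%; 10.5%), 5 in KO-40 (11.6%; 6.68%), 8 in KO-30 (18.6%; 8.48%) and 6 in KO-56 (14.0%; 5.5%).

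In KO-54, 32 of 43 members lay below the Col-0 mean (51.8% of all tested did), and 9 did so by more than 1.5-fold (20.9%; 4.33% of all tested), with 1 above it by as much (2.33%; 3.88%). EXPA15 had -1.08 ± 0.26 (SE; limma, adjusted p = 0.285), CSLC12 -0.87 ± 0.35 and EXPB3 -0.83 ± 0.21. The CSLC12 signal in KO-54 was 7.24, below the filter level of 9.6, so its difference there rests on a dim value. TBL38 and TBL32 had 0.66 ± 0.19 and 0.47 ± 0.14. KO-54 was the lowest of the 8 arrays for 15 members (34.9%), where it was the lowest for 18.4% of all probe sets tested. The actin ratio of 29.5 stood beside these values, and its part in them was not tested.

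In KO-40, EXPA15 had -1.05 ± 0.27 (SE; limma, adjusted p = 0.436). TBL36 had -0.82 ± 0.23 and XTH32 -0.73 ± 0.29. TBL38 had 0.46 ± 0.22 and XTH19 0.39 ± 0.46. A difference below Col-0 was seen for 25 of 43 members (51.9% of all tested), 5 of them past 1.5-fold (11.6%; 1.92% of all tested), and none was above Col-0 by that much (4.1% of all tested). KO-40 was the highest array for 0 members, against 12.3% of all probe sets tested. Its actin ratio, 8.41, was the lowest of the 8 arrays.

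In KO-30, 25 of 43 members lay below the Col-0 mean (54.5% of all tested), and members far from it lay on both sides. EXLA1 had 1.29 ± 0.33 (SE; limma, adjusted p = 0.465), EXPA16 0.90 ± 0.39 and XTH19 0.80 ± 0.36, while TBL16 had -0.70 ± 0.21 and GH9B13 -0.64 ± 0.31. Past 1.5-fold, 3 members were above Col-0 (6.98%; 1.75% of all tested) and 3 below (6.98%; 3.52%). KO-30 was the highest array for 9 members (20.9%; 15.5% of all tested), among them EXLA1, EXLA2, EXPA16, XTH16, XTH19 and XTH32. Its actin ratio was 15.4, and the part of RNA quality in these values was not tested.

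In KO-56, EXLB1 had 0.65 ± 0.16 (SE; limma, adjusted p = 0.40) and TBL41 0.62 ± 0.21, while XTH33 had -1.08 ± 0.27 and GH9B13 -0.84 ± 0.26. The XTH33 signal in KO-56 was 3.67, below the pseudocount of 5, so its difference there rests on a value near the floor. Of 43 members, 22 lay below Col-0 (47.1% of all tested), with 3 lower (6.98%; 2.19%) and 2 higher (4.65%; 2.73%) by more than 1.5-fold. The members' median was -0.01, where that of all probe sets tested was 0.01, and KO-56 was the line nearest to Col-0 for EXPA15, EXPB3 and GH9C2. KO-02 and KO-07 had medians of -0.22 and -0.19, with 32 and 33 of 43 members below Col-0 (48% and 50.7% of all tested). Past 1.5-fold, 5 were lower and 0 higher in KO-02 (1.52% and 1.48% of all tested), and 3 were lower and 0 higher in KO-07 (1.24% and 1.61%). In KO-02, GH9B18 had -0.84 ± 0.29 and EXPA9 -0.73 ± 0.32, and TBL38 and TBL16 had 0.35 ± 0.23 and 0.26 ± 0.30. The GH9B18 signal in KO-02 was 5.90, below the filter level of 9.6, so its difference there rests on a dim value. In KO-07, CSLC12 had -0.75 ± 0.39 and TBL36 -0.66 ± 0.26, and GH9A3 and TBL38 had 0.33 ± 0.27 and 0.24 ± 0.22. The CSLC12 signal in KO-07, 8.32, was also below the filter level.

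The Col-0 pair gives a measure of how far 2 arrays of the same accession lay apart. Col-0-L was lower than Col-0-S for 21 of 43 members (47.2% of all tested), and 6 members differed by more than 1.5-fold (14.0%; 5.32% of all tested). CSLC04, XTH16, EXLA1, EXPA16 and TBL34 were higher in Col-0-S, and EXPB5 was higher in Col-0-L. For 18 of 43 members (41.9%) the gap within the pair was larger than the difference between the lines and Col-0. The same share among all probe sets tested was not computed, so this count is not read as particular to the members. The median absolute gap was 0.15 for members and 0.16 for all probe sets tested.

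Other wall and growth genes could be followed only through the few that the annotation names. Of 3 pectin genes above the filter, GAUT15, a pectin synthesis gene, had a log2 difference of -0.13, and the pectin methylesterase genes PME61 and PMEPCRF had 0.10 and 0.13. COB, which guides cellulose orientation, had -0.08, the galactosidase gene BGAL16 had 0.09, and the wall-sensing receptor kinases FER and THE1 had 0.04 and 0.09. Of 3 genes listed under lignin by their symbols alone, CCOAMT had a mean of 78.5 ± 6.58 (SD, n = 2) for Col-0. The 6 lines averaged 145 ± 88.6 (SD, n = 6), a log2 difference of 0.66 ± 0.46 (SE). For 4CL8 it was 0.38 ± 0.34 and for HCT -0.10 ± 0.13. A role of these genes in lignin was not checked. The CCOAMT signal was highest in KO-40 (307), and in KO-30 (71.8) and KO-56 (65.5) it lay below both Col-0 arrays (73.8 and 83.1). For 4CL8, KO-56 had 50.7 and the other lines 14.1 to 19.7, against 13.3 and 16.0 in Col-0. limma called 0 of these 10 genes, and 0 had an unadjusted p under 0.05.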

How the data were processed

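Probe set signals of 8 ATH1 arrays were used as deposited: intensity values on a linear scale, made by the authors with MAS5 per the submitters' processing notes, with no version given in the sources used here. The 2% trimmed mean of the 22810 values was 100.0 on all arrays, and no rescaling was done. Arrays were grouped by source name, and 0 columns lacked a sample. After removal of 64 control probe sets, log2(signal + 5) was taken, where 5 rounds the 20th percentile of all signals. This scale understates the change of dim genes. Probe sets with a mean above the 30th percentile were tested (15922). Tests used limma 3.58.1 in R 4.3.3 (lmFit, eBayes, two-sided, Benjamini-Hochberg over all tested): the 6 lines against Col-0 in a model with 6 residual degrees of freedom, and each line in one with 3 levels and 5. The fits were run on simulated data with independent noise, which checks only that a known shift is returned at its size. The simulated lines varied as replicates do, unlike the 6 separate lines here. Precision is limited by the number of arrays.

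Of the 22746 probe sets, 13513 have 1 annotated symbol, 503 have several and 8730 are not listed. All 71 member symbols were found in the gene table. Another 4 probe sets shared with a family member were left out. Members and lists were chosen with earlier results of these data known. Values were given for every tested member, and the rule for naming took, per family, the 3 largest differences and the highest signal, and per line the 2 largest in each direction. Members outside it, such as EXPA20, EXLA2 and XTH16, were named after their values were seen. Signals of different probe sets do not rank transcript levels. Alternatives were pseudocounts of 1 and 21, no filter or one at the median, quantile normalization, median centring, trended and robust variances, array weights, leaving out each array, and leaving out KO-54 with KO-30.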

Additional observations from a re-analysis of the deposited data

Results flagged for a closer look

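Among the 43 members tested for a line that stood apart from the other 5, 2 had one, where chance gives about 1 in 20. EXLB1, an expansin-like gene, had a signal of 191 in KO-56, and the next line was KO-54 at 109.7. TBL32, whose probe set can match related transcripts, had 25.9 in KO-54, and the next line was KO-30 at 21.2. On the log2(signal + 5) scale the gap made up 0.820 and 0.864 of the range of the 6 lines, above the critical value of 0.625. The actin 3' to 5' ratio was 9.91 in KO-56 and 29.5 in KO-54, and its part in these values was not tested.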

How the results depend on the processing

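The count of members called stayed at 0 in the comparison of the 6 lines and in each line under the 17 alternative settings, with a smallest adjusted p (limma) of 0.601 for the 6 lines and 0.116 for a line (KO-54). Without the filter on dim probe sets, 49 of 71 members were lower in the lines, and the medians were 0.031 for XTH and -0.16 for GH9, over more members. Without KO-54 and KO-30 the TBL median was -0.020. Leaving out 1 array gave expansin medians from -0.35 to -0.14. Of 27 named members, 19 kept their direction in every setting that tested them and 8 did not. Where the lines did not overlap with Col-0, only quantile normalization and median centring could have turned the direction. With array weights EXPA16, TBL16 and XTH19 had -0.025, 0.017 and -0.013, and without KO-54 and KO-30 EXLA1, TBL16 and TBL25 had -0.043, 0.075 and 0.011. With 1 array left out, the ranges were -0.20 to 0.59 for EXLA1, -0.28 to 0.52 for EXPA16, -0.11 to 0.022 for TBL25, -0.092 to 0.26 for XTH19, -0.068 to 0.028 for TBL23, -0.018 to 0.13 for GH9A3, -0.18 to 0.0075 for TBL16 and -0.41 to 0.22 for CSLC04. The cause was not tested. Each of these 8 lay within 0.2 of 0 with all arrays. No paired analysis was possible because the labels give every array the same replicate number. Signals near the filter are few times the pseudocount, which limits what differences of dim members can show.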
